A study of Mus musculus with 4 samples.

Results

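Transforming growth factor beta (TGF-beta) and platelet-derived growth factor (PDGF) are the secreted signals best known for turning hepatic stellate cells into matrix-producing myofibroblasts. The 10 genes described here are the TGF-beta ligands Tgfb1, Tgfb2 and Tgfb3, the receptor subunits Tgfbr1 and Tgfbr2, the PDGF ligand chains Pdgfa, Pdgfb and Pdgfc, and the receptors Pdgfra and Pdgfrb. They were chosen by name and matched to probe sets that list 1 gene symbol in the platform table, which gave 24 probe sets out of 34945 for 18193 genes. All 10 genes had at least 1 probe set above the filter on low values, a mean signal over the 4 arrays above 95.0, and 17 of the 24 probe sets passed it. Nearest to the filter were Tgfb1 1445360_at inside it, with a mean of 129, and Tgfb2 1438303_at outside it, with a mean of 87.0.

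The study profiled 4 samples from C57BL/6 mice, 2 treated with G-CSF and 2 with vehicle, each on 1 Affymetrix mouse array of 45101 probe sets. All the mice had received 30 injections of carbon tetrachloride, a hepatotoxin that causes fibrosis, at 1 ml/kg. For the last 7 days the G-CSF group also received recombinant human granulocyte colony-stimulating factor (G-CSF) at 100 µg/kg, and the PBS group received phosphate-buffered saline with mouse serum albumin at 0.1%. The labels describe the material both as liver tissue and as marrow-derived cells in that tissue; no sort, age or number of mice per array is given in the sources used here. The labels do not say that replicates came from separate animals, so p-values measure only the spread between these arrays. Hepatocyte markers were above background on every array for all 12 genes listed, albumin and transthyretin among them. In bulk RNA of this kind, fewer cells of a type and less RNA per cell cannot be told apart.

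One array, PBS replicate 1, was unlike the others, and several values below depend on it. Its Pearson correlation with them over 19947 probe sets was 0.816 to 0.848, against 0.942 to 0.973 among the other arrays. The 14 matched T cell markers summed to a signal of 4473 and 2524 on the G-CSF arrays, against 45691 on PBS replicate 1 and 2791 on PBS replicate 2. The 12 hepatocyte markers summed to 290587 and 271170 with G-CSF, against 175840 and 335744 in PBS replicates 1 and 2. The labels give 40 ng of total RNA for each sample. The 3'/5' ratio of Gapdh, a measure of RNA quality, was 20.2 and 19.1 with G-CSF and 15.7 and 14.8 with PBS. That of Actb was 12.6 and 13.7 with G-CSF and 11.2 and 9.88 with PBS. The part of RNA quality in the differences below, and in which probe sets were above background, was not tested.

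TGF-beta is made as a latent complex and, once released, binds Tgfbr2, which recruits and phosphorylates Tgfbr1 to activate Smad2 and Smad3. PDGF chains pair into dimers that bind the receptor tyrosine kinases Pdgfra and Pdgfrb. In injured liver, TGF-beta is the main known driver of collagen synthesis by stellate cells, and PDGF the main known stimulus of their proliferation and migration. Macrophages and platelets are known sources of both.

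None of the 10 genes passed the test between G-CSF and PBS. Over the 17 tested probe sets, the limma adjusted p lay between 0.983 and 0.997, and 0 had an unadjusted p below 0.05. Over all 19947 probe sets tested, limma called 0 higher and 0 lower after adjustment (0% called), while 2.83% were higher and 0.531% lower at an unadjusted p below 0.05. Differences are given as G-CSF minus PBS, in units of log2(signal + 23), and ran from −0.33 to 0.69 over the 17 probe sets, with a median of 0.35 against 0.037 over all probe sets tested. This scale understates the change of weak signals. They were above 0 for 15 of 17, against 53.4% of all probe sets tested, and 0 of 17 were 2-fold apart with no overlap, against 3.43% higher and 1.58% lower among all. Probe sets of 1 gene can measure the same transcripts, though some disagreed, so the 17 cannot be counted as independent. An exact permutation test of 2 arrays against 2 cannot give a two-sided p below 0.333 for a single gene.

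**Figure D1:**
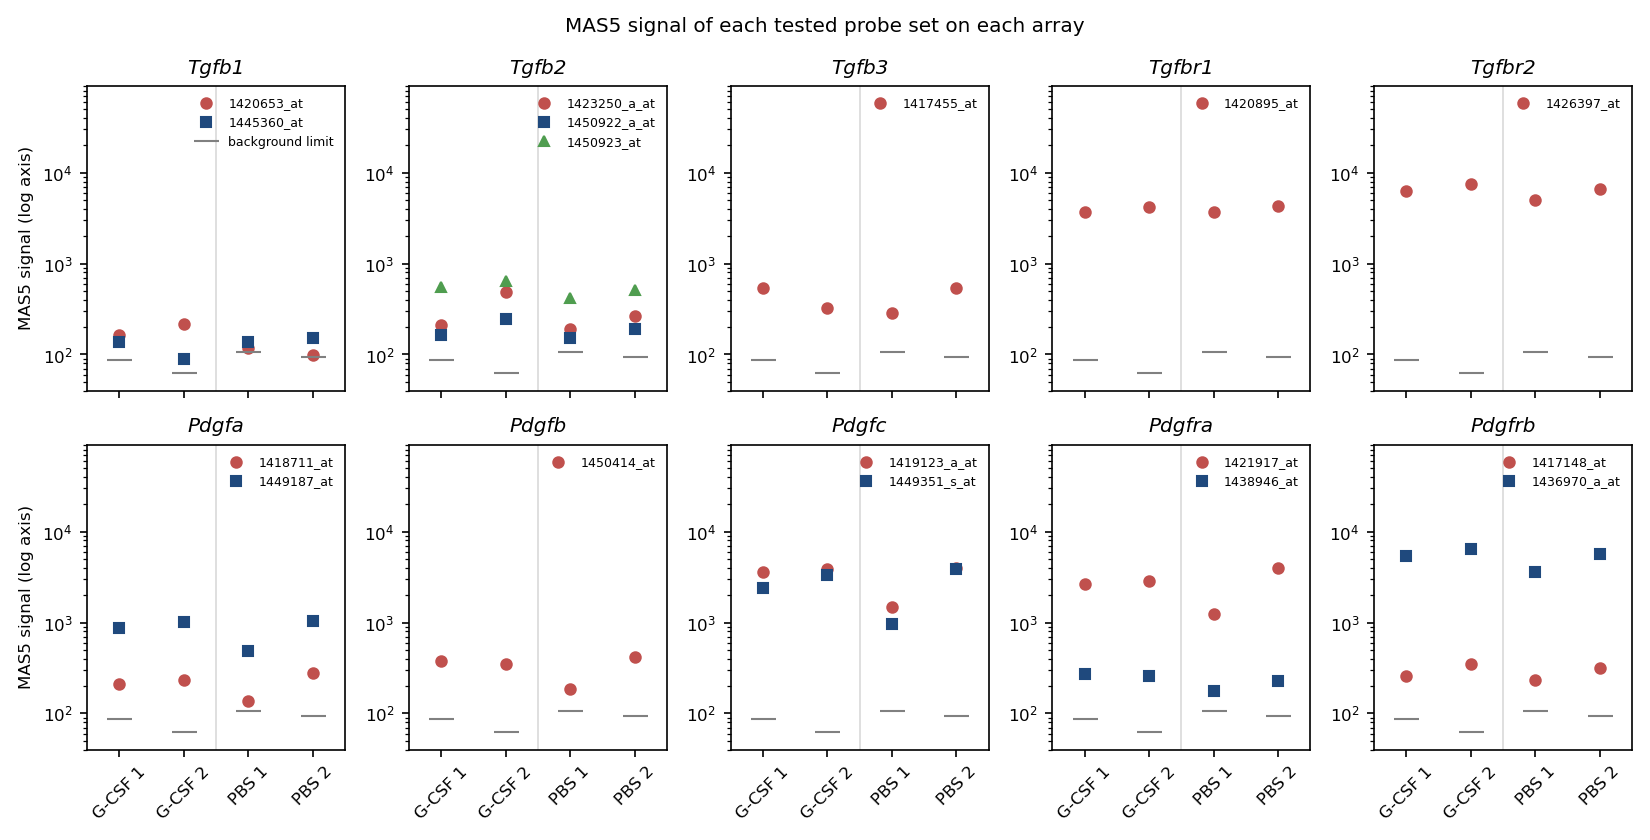
MAS5 signal (log axis) of each of the 17 tested probe sets on the G-CSF and PBS arrays, with 1 panel per gene and 1 symbol per probe set; grey dashes mark each array's background limit. The PDGF probe sets are lowest on PBS replicate 1, and the Tgfbr1 signals differ by no more than 1.18-fold over the 4 arrays.

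Among the TGF-beta ligands, Tgfb1, the form with the best-established part in liver fibrosis, was weakly measured and its probe sets disagreed. Probe set 1420653_at had signals of 163 and 217 in G-CSF replicates 1 and 2, against 118 and 99.1 in PBS replicates 1 and 2. Both G-CSF signals were thus above both PBS signals, and the PBS signals lay just above the background limits of those arrays (106 and 94.6). The difference was 0.69 ± 0.37 (SE of the limma fit, n = 2 arrays per group), or 1.61-fold, with a 95% interval of −0.26 to 1.63 (limma adjusted p = 0.983). It was 0.59 against PBS replicate 1 alone and 0.79 against PBS replicate 2 alone. Probe set 1445360_at ran the other way, with signals of 136 and 89.3 with G-CSF, against 136 and 153 with PBS. Its groups did not overlap by a narrow margin, since G-CSF replicate 1 and PBS replicate 1 had nearly the same signal, and its difference was −0.33 ± 0.40 (SE). That value rested on G-CSF replicate 2, without which it was −0.076. Tgfb1 was the only gene of the 6 with several tested probe sets whose probe sets lay on both sides of 0. No direction can therefore be given for it from these arrays.

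Tgfb2, a ligand with high affinity for the co-receptor Tgfbr3, was measured by 3 tested probe sets that ran together. Probe set 1450923_at had signals of 557 and 648 with G-CSF, against 415 and 517 in PBS replicates 1 and 2. The groups did not overlap, and the difference was 0.36 ± 0.33 (SE; interval −0.48 to 1.20). Probe set 1423250_a_at had 213 and 488 with G-CSF, against 189 and 266 with PBS, and 1450922_a_at had 163 and 246 with G-CSF, against 152 and 190 with PBS. In both of these the groups overlapped, and all 3 probe sets were highest on G-CSF replicate 2. Their differences, 0.49 ± 0.49 and 0.21 ± 0.38 (SE), rested on that array: without it they were −0.069 and −0.055. The remaining Tgfb2 probe set, 1438303_at, was not tested, with signals of 64.5 and 112 with G-CSF and 103 and 69.4 with PBS. It was above background on 1 G-CSF array and on 0 PBS arrays.

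Tgfb3, a ligand made mainly by mesenchymal cells, had signals of 537 and 322 in G-CSF replicates 1 and 2, against 288 and 539 in PBS replicates 1 and 2. Each group held 1 high and 1 low array, and the overlap was complete. The difference was 0.074 ± 0.46 (SE; interval −1.09 to 1.23), with 0.50 against PBS replicate 1 alone and −0.35 against PBS replicate 2 alone. Of the 6 tested ligand probe sets, 2 were higher with no overlap (1420653_at and 1450923_at) and 1 was lower (1445360_at), against 17.6% higher and 13.6% lower with no overlap among all probe sets tested. Over all 17 probe sets, 4 had no overlap in either direction, against 31.2% of all probe sets tested.

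The TGF-beta receptor subunits were among the steadiest of the 10 genes. Tgfbr1, the type I receptor kinase, had signals of 3713 and 4199 with G-CSF, against 3685 and 4350 with PBS, by probe set 1420895_at. The groups overlapped, the highest signal was 1.18-fold the lowest, and the difference was −0.020 ± 0.32 (SE; interval −0.83 to 0.79). The interval still allows a change of either sign, so these arrays do not show that the level was the same. Tgfbr2, the type II receptor that binds the ligand first, had 6253 and 7446 with G-CSF, against 5004 and 6587 with PBS, by 1426397_at. PBS replicate 1 was lowest and G-CSF replicate 2 highest, and the difference was 0.25 ± 0.33 (SE; interval −0.58 to 1.08). It was 0.45 against PBS replicate 1 alone and 0.051 against PBS replicate 2 alone. The other 4 probe sets of these receptors were under background on every array, with signals of 2.41 to 70.4, and were not tested. Each receptor was thus read by 1 probe set.

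In all 5 tested PDGF ligand probe sets both G-CSF arrays lay between the PBS arrays, with PBS replicate 1 lowest and PBS replicate 2 highest. Pdgfc, a chain that is activated outside the cell by proteolysis and binds mainly Pdgfra, showed the widest spread. Probe set 1419123_a_at had signals of 3625 and 3843 in G-CSF replicates 1 and 2, against 1488 and 3935 in PBS replicates 1 and 2. The G-CSF arrays lay between the PBS arrays, and PBS replicate 2 was 2.65-fold PBS replicate 1. The difference was 0.62 ± 0.53 (SE; interval −0.72 to 1.96), with 1.31 against PBS replicate 1 alone and −0.076 against PBS replicate 2 alone. Probe set 1449351_s_at had 2371 and 3309 with G-CSF, against 968 and 3908 with PBS, a 4.04-fold gap between the PBS arrays. Its difference was 0.52 ± 0.70 (SE), with 1.51 and −0.48 against PBS replicates 1 and 2 alone. The sign of the Pdgfc difference thus depended on which PBS array it was set against, by both probe sets.

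Pdgfa, which forms the dimer PDGF-AA that binds Pdgfra, had signals of 869 and 1025 with G-CSF, against 488 and 1039 in PBS replicates 1 and 2, by probe set 1449187_at. Its second probe set, 1418711_at, had 212 and 233 with G-CSF, against 136 and 281 with PBS. In both, the G-CSF arrays lay between the PBS arrays. The differences were 0.39 ± 0.46 and 0.16 ± 0.44 (SE), and with PBS replicate 2 as the only vehicle array they were −0.14 and −0.31. Pdgfb, whose dimer PDGF-BB binds both receptors and is the strongest known mitogen of stellate cells, had 375 and 350 with G-CSF, against 184 and 416 with PBS, by 1450414_at. Its G-CSF arrays also lay between the PBS arrays, and the difference was 0.35 ± 0.46 (SE), with 0.89 and −0.19 against PBS replicates 1 and 2 alone. Its other probe set, 1450413_at, had 69.5 and 77.9 with G-CSF and 62.5 and 78.2 with PBS and was not tested. PBS replicate 2 was the highest array in 5 of 5 tested PDGF ligand probe sets, against 27.9% of all probe sets tested.

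The PDGF receptors kept to the same order on PBS replicate 1 and were less uniform on the other arrays. Pdgfra, the receptor carried by quiescent stellate cells and fibroblasts, had signals of 2628 and 2878 with G-CSF, against 1234 and 3954 in PBS replicates 1 and 2, by probe set 1421917_at. The G-CSF arrays lay between the PBS arrays, with a difference of 0.31 ± 0.60 (SE; interval −1.21 to 1.83). Against PBS replicate 2 alone it was −0.52, and against PBS replicate 1 alone it was 1.14. Probe set 1438946_at had 271 and 258 with G-CSF, against 176 and 225 with PBS. There the groups did not overlap, and the difference was 0.37 ± 0.34 (SE), with 0.21 against PBS replicate 2 alone. The 2 probe sets thus differed in direction against PBS replicate 2. The other probe set, 1421916_at, was under background on every array (21.2 to 78.2).

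Pdgfrb, the receptor that rises as stellate cells become myofibroblasts, had signals of 5359 and 6481 with G-CSF, against 3572 and 5632 with PBS, by probe set 1436970_a_at. The groups overlapped, with PBS replicate 1 lowest, and the difference was 0.39 ± 0.37 (SE; interval −0.55 to 1.33). Against PBS replicate 2 alone it was 0.065. Probe set 1417148_at had 257 and 351 with G-CSF, against 231 and 318 with PBS, with a difference of 0.14 ± 0.36 (SE) and of −0.075 against PBS replicate 2 alone.

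**Figure D2:**
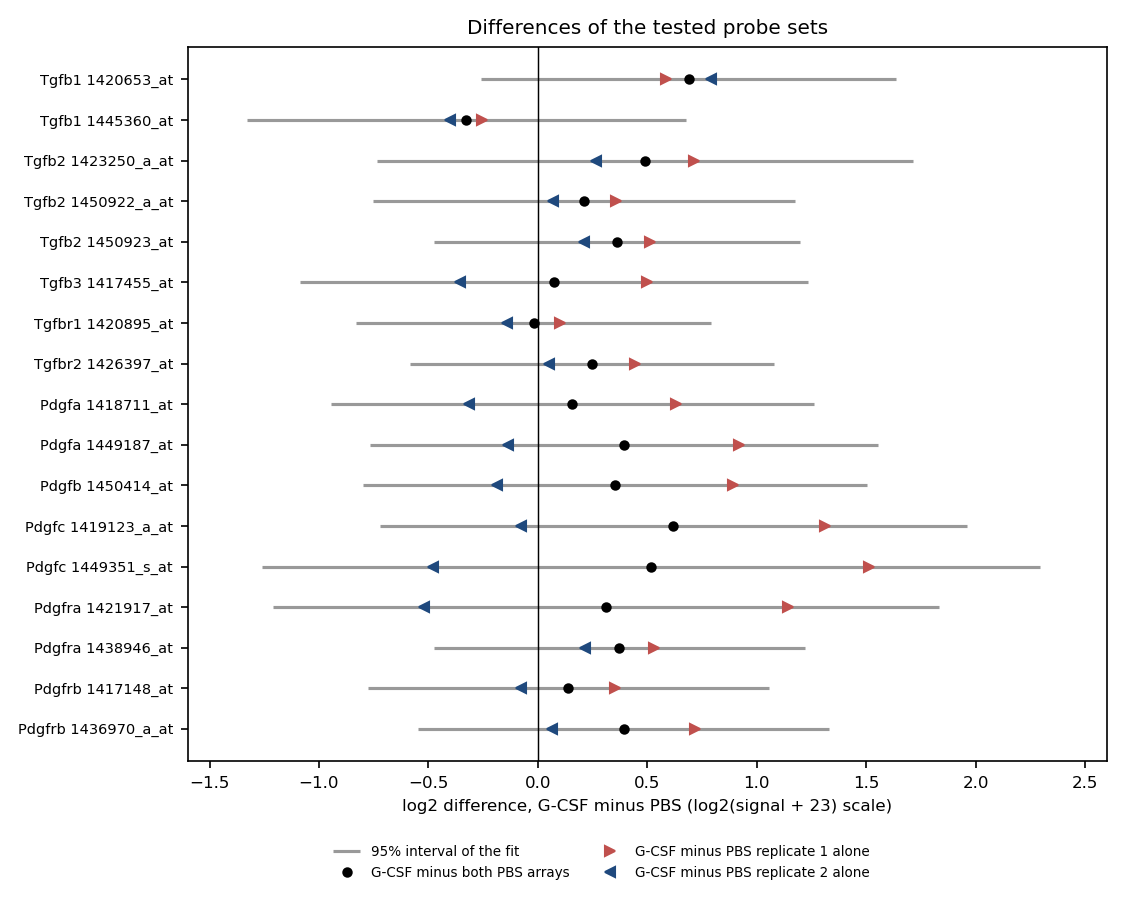
Log2 difference (G-CSF minus PBS, log2(signal + 23) scale) of each tested probe set, with its 95% interval from the limma fit as a bar, with triangles for the values when a single PBS array is used. Every bar crosses 0, and the triangles of the Pdgfa, Pdgfb and Pdgfc probe sets lie on opposite sides of 0.

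PBS replicate 1 was the lowest array in 15 of the 17 tested probe sets, against 43.9% of all probe sets tested. Taking 1 probe set per gene, it was lowest for 9 of the 10 genes, against 47.0% of all 12187 genes, with Tgfb1 as the exception. No probe set was highest there, against 35.0% of all probe sets tested. PBS replicate 1 was lowest in 9 of 9 PDGF probe sets and in 6 of 8 TGF-beta probe sets. PBS replicate 2 was lowest in 1 probe set, 1420653_at of Tgfb1, against 24.8% of all, and highest in 9. G-CSF replicate 2 was highest in 7, against 17.9% of all, and 5 of those 7 were TGF-beta probe sets. By size, PBS replicate 1 lay at least 2-fold below every other array in 3 probe sets, both of Pdgfc and 1 of Pdgfra, against 7.98% of all probe sets tested. The SD between PBS arrays exceeded that between G-CSF arrays in 13 of 17 probe sets, with medians of 0.18 for G-CSF and 0.32 for PBS on the log2 scale, against 78.4% of all probe sets tested, with medians of 0.16 and 0.47.

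The call on the PDGF genes turned with that array. Without PBS replicate 2, so that PBS replicate 1 alone stood for PBS, 6 of the 9 PDGF probe sets passed as higher and 0 of the 8 TGF-beta probe sets did, against 18.9% called higher among all probe sets. These 6 were both of Pdgfc, 1449187_at of Pdgfa, 1450414_at of Pdgfb, 1421917_at of Pdgfra and 1436970_a_at of Pdgfrb, with limma adjusted p from 0.0036 to 0.0427. In that fit the lone PBS array is assumed to vary like the G-CSF arrays. Without PBS replicate 1, 0 of the 17 passed, against 1.79% called higher and 0.722% lower among all. Without G-CSF replicate 1 or G-CSF replicate 2, 0 of the 17 passed, against 0.0602% and 0.110% called higher among all, and with array weights 0 passed, against 0.170%. Differences lay above 0 for 16 of 17 against PBS replicate 1 alone (55.6% of all) and for 7 of 17 against PBS replicate 2 alone (49.2% of all). The median difference over the 9 PDGF probe sets was 0.37 with both PBS arrays, 0.89 against PBS replicate 1 alone and −0.14 against PBS replicate 2 alone. For the 8 TGF-beta probe sets it was 0.23, 0.47 and 0.060. Over all probe sets tested it was 0.037, 0.12 and −0.0082. A difference between the 2 families was not tested.

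Promoter sequences are shown for 3 of the PDGF genes, which were lowest together on PBS replicate 1, and for Tgfbr1, whose signals moved least. The PDGF genes and Tgfbr1 were picked by their values, and Tgfbr1 was lowest on PBS replicate 1 as well. No window was searched for Pdgfb, Pdgfrb or Tgfb3. The RefSeq promoter table (GRCm38.p6) held 7 of the 10 genes, and the 250 bases before the start site were searched on both strands for GGGCGG (the Sp1 box), TATAAA (the TATA box), CAGACA (the core of the Smad-binding CAGA element), TGACTCA (an AP-1 site) and GTCTAGAC (the Smad palindrome). Capitals mark the matches, which did not overlap each other. The windows are chr5:138994945-138995194 (minus strand) for the more upstream of 2 listed Pdgfa starts, chr3:81036166-81036415 (plus strand) for Pdgfc, chr5:75152001-75152250 (plus strand) for Pdgfra and chr4:47352972-47353221 (plus strand) for the more upstream of 2 listed Tgfbr1 starts.
Pdgfa: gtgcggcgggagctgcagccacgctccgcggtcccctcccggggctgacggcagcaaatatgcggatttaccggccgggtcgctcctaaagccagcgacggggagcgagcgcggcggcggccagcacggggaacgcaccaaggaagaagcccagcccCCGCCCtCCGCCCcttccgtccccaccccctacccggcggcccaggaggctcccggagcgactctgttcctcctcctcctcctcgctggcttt
Pdgfc: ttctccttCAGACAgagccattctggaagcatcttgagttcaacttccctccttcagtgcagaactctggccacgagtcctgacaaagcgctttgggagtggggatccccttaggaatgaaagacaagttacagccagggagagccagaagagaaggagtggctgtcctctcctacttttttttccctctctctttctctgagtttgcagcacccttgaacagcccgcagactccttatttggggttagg
Pdgfra: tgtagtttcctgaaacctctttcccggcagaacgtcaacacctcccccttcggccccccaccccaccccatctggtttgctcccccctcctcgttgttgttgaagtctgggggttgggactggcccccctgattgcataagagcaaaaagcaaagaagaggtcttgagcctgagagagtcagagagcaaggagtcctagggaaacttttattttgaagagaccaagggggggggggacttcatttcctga
Tgfbr1: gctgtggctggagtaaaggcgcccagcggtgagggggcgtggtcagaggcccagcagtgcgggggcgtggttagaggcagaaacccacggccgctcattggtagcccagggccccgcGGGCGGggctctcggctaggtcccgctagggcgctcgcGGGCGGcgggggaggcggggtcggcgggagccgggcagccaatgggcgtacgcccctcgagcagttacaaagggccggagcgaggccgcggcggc
The Pdgfa and Tgfbr1 windows each held 2 Sp1 boxes, a motif found in 32.7% of all 32851 promoter windows. The Pdgfc window held 1 CAGACA, found in 17.1% of all windows, and the Pdgfra window held 0 of the motifs. TATAAA, found in 12.4% of all windows, was in 0 of these 4. TGACTCA and GTCTAGAC, found in 4.46% and 0.167% of all windows, were in 0 of the 4 as well. Among the windows not shown, that of Tgfb1 held 5 Sp1 boxes and that of Tgfb2 held 1 TATAAA and 1 CAGACA. The second Pdgfa window held 1 Sp1 box, the second Tgfbr1 window 1 CAGACA and the Tgfbr2 window 0 of the motifs. No motif was in more than 1 of the 3 PDGF windows, which says nothing about the factors themselves. Their GC content was 72.4% for Pdgfa, 50.8% for Pdgfc and 54.4% for Pdgfra, and 74.8% for Tgfbr1, against a median of 52.4% over all windows.

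The other genes of the TGF-beta pathway were read from lists of its parts, with the probe set of highest mean taken for each gene, and 0 passed after adjustment. Of 14 matched genes that hold TGF-beta latent or release it, 14 were tested, 0 had an unadjusted p below 0.05, against 3.36% higher and 0.427% lower among all genes, and the median difference was 0.32, against 0.067 over all genes. The median was 0.74 against PBS replicate 1 alone and −0.047 against PBS replicate 2 alone, with 6 of 14 above 0 in that case. Ltbp3, a latent TGF-beta binding protein, had signals of 3386 and 4351 with G-CSF, against 1749 and 3502 with PBS, a difference of 0.63 ± 0.45 (SE). Its relative Ltbp1 differed by 0.51 ± 0.44 (SE). The integrin chains that release TGF-beta from latency, Itgav and Itgb8, differed by 0.31 ± 0.41 and 0.34 ± 0.48 (SE), and all 4 of these genes were lowest on PBS replicate 1. Against PBS replicate 2 alone Ltbp3 differed by 0.13, Ltbp1 by −0.0054, Itgav by −0.17 and Itgb8 by −0.24. Furin, the protease that cuts the TGF-beta precursor, differed by 0.42 ± 0.36 (SE), and by 0.15 against PBS replicate 2 alone. Thbs1 and Itgb6, other activators of latent TGF-beta, were not above background on either PBS array. Thbs1 had measured means of 108 with G-CSF and 93.5 with PBS. With PBS set at the background limit, or at the signal where that was higher, it was 1.06-fold higher with G-CSF. Its fitted difference was 0.17 ± 0.39 (SE), with an interval of −0.81 to 1.15, and limma did not pass it (adjusted p = 0.984). No direction can be given for Thbs1, since its G-CSF signals (105 and 111) lay near the PBS background limits (106 and 94.6). Itgb6 had signals of 92.9 and 221 with G-CSF, against 91.8 and 88.0 with PBS. With PBS set in the same way it was 1.36-fold higher with G-CSF (measured means 157 and 89.9, limma adjusted p = 0.983). That value rested on G-CSF replicate 2, and the interval of the fitted difference was −0.68 to 1.83. Lrrc32 was not analysed here.

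Among 10 co-receptors and related receptors, 8 were tested, and the median difference was 0.49. It was 1.04 against PBS replicate 1 alone and −0.045 against PBS replicate 2 alone, with 2 of 8 above 0 in that case. Acvrl1, a type I receptor of endothelial cells that answers to BMP9 and TGF-beta, had signals of 360 and 340 with G-CSF, against 58.9 and 147 with PBS. Both G-CSF arrays were above both PBS arrays, and the fitted difference was 1.66 ± 0.46 (SE; limma adjusted p = 0.983). Only 1 of the 2 PBS arrays measured it, since PBS replicate 1 was under background, and against PBS replicate 2 alone the difference was 1.13. Its second probe set gave 1.14. Acvrl1 was the 1 gene of the 8 tested with an unadjusted p below 0.05, against 3.36% higher and 0.427% lower among all genes. Eng, an endothelial co-receptor, differed by 0.10 ± 0.56 (SE), and Tgfbr3, betaglycan, by −0.23 ± 0.39 (SE), neither beyond its error. They differed by −0.64 and −0.55 against PBS replicate 2 alone.

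Most of the listed Smads and Smad partners stood in another order on PBS replicate 1, while Smad7, listed with the inhibitors, was lowest there. Of 8 tested Smads and Smad partners, that array was the highest in 6, against 33.7% of all genes, and the lowest in 2. Smad3, which carries the signal of the TGF-beta receptors, had signals of 1378 and 1554 with G-CSF, against 2591 and 1504 in PBS replicates 1 and 2. Smad4, the partner shared by TGF-beta and BMP signalling, had 3708 and 4178 with G-CSF, against 6418 and 4280 with PBS. For both, PBS replicate 2 lay near the G-CSF arrays, and the differences were −0.43 ± 0.40 for Smad3 and −0.41 ± 0.36 for Smad4 (SE). Against PBS replicate 2 alone they were −0.039 and −0.12. Smad2, which the same receptors phosphorylate, differed by −0.20 ± 0.46 (SE), with −0.75 and 0.35 against PBS replicates 1 and 2 alone, and its other probe set gave 0.069. The median of the list was −0.10, with −0.46 against PBS replicate 1 alone and −0.080 against PBS replicate 2 alone.

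Of 15 TGF-beta inhibitors, all tested, 1 had an unadjusted p below 0.05, against 3.36% higher and 0.427% lower among all genes. The median difference was 0.21. It was 0.56 against PBS replicate 1 alone and −0.14 against PBS replicate 2 alone, with 5 of 15 above 0 in that case. The gene with that p was Fmod, fibromodulin, named here after its values were seen, with signals of 2420 and 4700 with G-CSF, against 1514 and 1109 with PBS, and its 6 probe sets differed by 1.04 to 1.36. Bambi, a decoy receptor that falls as stellate cells are activated, had 580 and 639 with G-CSF, against 155 and 512 with PBS. Its groups did not overlap, and the difference was 1.03 ± 0.58 (SE), but only 0.24 against PBS replicate 2 alone. Smad7, the inhibitory Smad that TGF-beta itself induces, differed by 0.092 ± 0.51, the co-repressor Skil by 0.21 ± 0.38 and the matrix proteoglycan Dcn by 0.53 ± 0.59 (SE). All 3 were below 0 against PBS replicate 2 alone, at −0.54, −0.14 and −0.31.

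Of 21 tested TGF-beta target genes, 20 lay above 0, against 55.9% of all genes, with a median difference of 0.55. An unadjusted p below 0.05 was found for 1 gene, against 3.36% higher and 0.427% lower among all genes. That gene was Acta2, smooth muscle actin, the usual marker of myofibroblasts, with signals of 8941 and 10426 with G-CSF, against 5164 and 3200 in PBS replicates 1 and 2. Both G-CSF arrays were above both PBS arrays, and the difference was 1.24 ± 0.37 (SE; limma adjusted p = 0.983). It was 0.90 and 1.59 against PBS replicates 1 and 2 alone. Only 1 of the 3 Acta2 probe sets was tested. Timp1, an inhibitor of matrix proteases, had 638 and 616 with G-CSF, against 369 and 374 with PBS. Its groups did not overlap, its PBS arrays were close to each other, and the difference was 0.72 ± 0.31 (SE). Ccn2, connective tissue growth factor, differed by 1.11 ± 0.54 and Tgfbi by 0.93 ± 0.42 (SE), and both were 0.41 against PBS replicate 2 alone. Col1a1, a collagen I chain, differed by 0.34 ± 0.44 (SE), and its other probe set gave 1.14. Against PBS replicate 2 alone the first was −0.060. Groups did not overlap for 10 higher genes and 1 lower, against 30.7% of all genes in either direction. Against PBS replicate 1 alone the list's median was 0.73 with 20 of 21 above 0, and against PBS replicate 2 alone it was 0.19 with 13 of 21 above 0. The summed signal of the list was 112716 and 133954 with G-CSF, against 69202 and 102064 with PBS.

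Of 20 genes of the PDGF pathway, 19 were tested. At an unadjusted p below 0.05 there were 0, against 3.36% higher and 0.427% lower among all genes. The median difference was 0.20. It was 0.40 against PBS replicate 1 alone and −0.0051 against PBS replicate 2 alone, with 9 of 19 above 0 in that case. Pdgfd, the fourth PDGF chain, which binds Pdgfrb, had signals of 781 and 1066 with G-CSF, against 480 and 931 with PBS. PBS replicate 1 was again lowest, PBS replicate 2 lay between the G-CSF arrays, and the difference was 0.43 ± 0.45 (SE; −0.027 against PBS replicate 2 alone). Plat, the tissue plasminogen activator that cleaves and activates the Pdgfc product, differed by 0.33 ± 0.55 (SE), and by −0.37 against PBS replicate 2 alone. Nrp1, a co-receptor, differed by 0.16 ± 0.31 (SE), and by 0.013 against PBS replicate 2 alone, with other probe sets as low as −0.77. Plau, the urokinase that activates the Pdgfd product, was below the filter, with 74.1 and 65.1 with G-CSF and 58.2 and 42.4 with PBS.

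Markers of the cells known to carry or release these factors were read on the same arrays. The 16 stellate cell and myofibroblast markers, all tested and above background on every array, summed to 111795 and 125805 with G-CSF, against 66844 and 120424 in PBS replicates 1 and 2. PBS replicate 1 was lowest for 14 of the 16, and likewise for 12 of 12 tested hepatocyte, 10 of 10 macrophage and 11 of 11 endothelial markers. The median difference of the stellate cell markers was 0.47, with 1.04 against PBS replicate 1 alone and −0.19 against PBS replicate 2 alone. Of these markers, Acta2, Col1a1, Col1a2, Col3a1, Tagln and Postn are also in the target list, and Dcn is among the inhibitors. Skil, Smad7 and Pmepa1 are both inhibitors and targets, Ltbp2 is in the latency and target lists, and Furin in the latency and PDGF lists. The lists are thus not separate readings. The 13 macrophage and Kupffer cell markers summed to 73863 and 69535 with G-CSF, against 39145 and 95421 with PBS, and Marco and Timd4 were under background on every array. The 12 endothelial markers summed to 7270 and 8403 with G-CSF, against 3280 and 9281 with PBS, and Pecam1 was under background on every array. Bile duct markers, with 7 matched, summed to 2618 and 3508 with G-CSF, against 1943 and 3767 with PBS.

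The 10 matched megakaryocyte and platelet markers summed to 15569 and 6674 in G-CSF replicates 1 and 2, against 4278 and 7393 with PBS, with 7 of the 9 tested highest on G-CSF replicate 1. Of 14 neutrophil markers tested, 14 were higher with an unadjusted p below 0.05, against 3.36% of all genes. After adjustment 0 passed (lowest limma adjusted p = 0.0839). The 14 summed to 278684 and 242196 with G-CSF, against 26645 and 8885 with PBS. The part of each cell type in the values of the 10 genes was not tested.

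**Figure D3:**
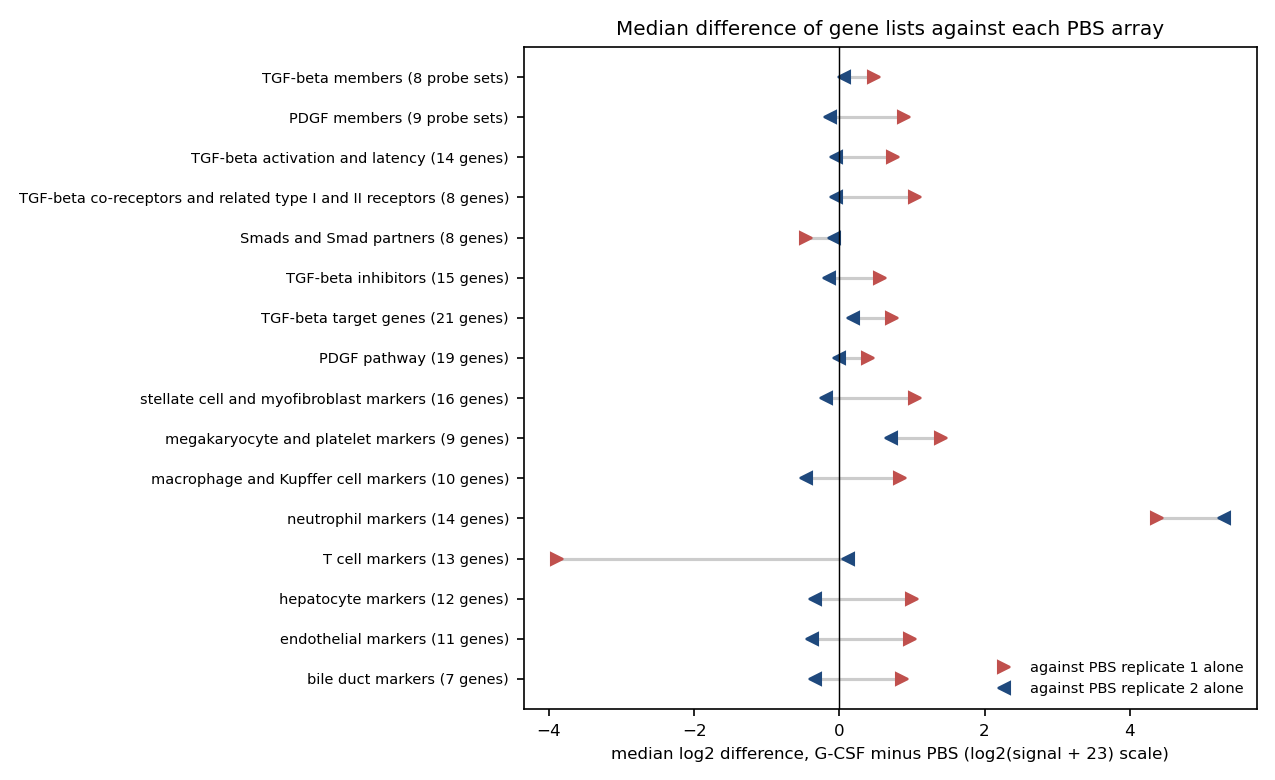
Median log2 difference (G-CSF minus PBS, log2(signal + 23) scale) of the TGF-beta and PDGF probe sets and of each list, for each PBS array used by itself; counts in brackets are the probe sets or genes tested. The PDGF members (0.89 and −0.14) change sign between the PBS arrays, as do most lists, among them the stellate cell (1.04 and −0.19), hepatocyte (1.00 and −0.33), macrophage (0.83 and −0.46), endothelial (0.97 and −0.38) and bile duct markers (0.86 and −0.34), while the neutrophil markers stay far above 0 (4.37 and 5.29).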

How the data were processed

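RNA from 2 samples per group was measured, each on 1 array. Per the submitters' processing notes, the authors computed the deposited intensity values with MAS5 (version not given in the sources used here). These are linear signals, and their 2% trimmed mean was 500.0 on all 4 arrays, so they were not rescaled. Before log2, 23 was added, from the overall median (92.9) divided by 4. Of 45101 probe sets, those for controls (64), several genes (932) or no named gene (9160) were dropped. The remaining 34945 were named from the platform table, and the 19947 whose mean signal passed 95.0 were tested.

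Groups were compared by probe set, because those of a gene can disagree, in limma 3.58.1 under R 4.3.3 (lmFit, then eBayes with a trend, two-sided). P-values were adjusted by Benjamini-Hochberg over all 19947 at a threshold of 0.05. The fit left 2 residual degrees of freedom, and the prior added 3.30. Background limits, taken on each array as the maximum over 27 control probe sets for bacterial sequences, were 86.4 and 63.0 for G-CSF replicates 1 and 2 and 106 and 94.6 for PBS replicates 1 and 2. The number of arrays limits the precision.

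The genes and lists were chosen with earlier results of these data known. By rule the text names every probe set of the 10 genes and a fixed set of pathway genes, and Fmod, which lies outside it, is said to. The alternatives tried covered normalization, pseudocount, filter, variance model, probe set choice, array weights, the replicate number as a block and each array left out. The procedure was tested on simulated data. Figures were drawn with matplotlib 3.10.9 in Python 3.11.15.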

Additional observations from a re-analysis of the deposited data

How the results depend on the processing

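The 17 differences all kept their sign, and 0 passed, with quantile normalization, with median centring, with a pseudocount of 1 or 92, without the filter, without the trend, with a robust fit, with array weights and with the replicate block. The same held for the 8 left by a filter at the 75th percentile and the 10 left with 1 probe set per gene. Over all probe sets, array weights called 34 higher and 0 lower, and the replicate block called 85 higher and 1 lower, against 0 and 0. The labels do not pair the arrays by number. The deviations of the replicates numbered 1 correlated at −0.025, but PBS replicate 1 was unlike the others, so this value cannot settle the pairing.

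Single arrays decided more. With each array left out in turn, 12 to 3767 probe sets were called higher and 0 to 3065 lower, and 0 to 3 of the 17 were 2-fold apart with no overlap. The maximum of each came without PBS replicate 2, and without PBS replicate 1 the first 2 counts were 357 and 144. Without PBS replicate 1 the sign turned for Pdgfa, Pdgfb, Pdgfc, Pdgfra (1421917_at), Pdgfrb (1417148_at) and Tgfb3, without G-CSF replicate 1 for Tgfb3 (−0.28) and Tgfbr1 (0.068), without G-CSF replicate 2 for Pdgfrb (1417148_at, −0.071) and Tgfb2 (1423250_a_at and 1450922_a_at), and without PBS replicate 2 for Tgfbr1. The ranges over these fits were −0.31 to 0.63 for Pdgfa (1418711_at), −0.14 to 0.92 for Pdgfa (1449187_at) and −0.19 to 0.89 for Pdgfb. They were −0.076 to 1.31 for Pdgfc (1419123_a_at), −0.48 to 1.51 for Pdgfc (1449351_s_at) and −0.52 to 1.14 for Pdgfra (1421917_at). For Pdgfrb (1417148_at) they were −0.075 to 0.35. The other tested probe sets of these receptors kept their sign, with 0.21 to 0.53 for Pdgfra (1438946_at) and 0.065 to 0.72 for Pdgfrb (1436970_a_at). For Tgfb2 the ranges were −0.069 to 1.05 (1423250_a_at), −0.055 to 0.48 (1450922_a_at) and 0.21 to 0.51 (1450923_at). They were −0.35 to 0.50 for Tgfb3, −0.14 to 0.10 for Tgfbr1 and 0.051 to 0.45 for Tgfbr2. For Tgfb1 they were 0.51 to 0.87 (1420653_at) and −0.58 to −0.076 (1445360_at). Low signal limits the reading of Tgfb1, whose tested probe sets lay near the background limit.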
